A study of Mus musculus with 59 samples.

Results

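The response of 2 skeletal muscles to a cachectic tumour was compared: the diaphragm, the muscle that drives breathing, and the tibialis anterior, a limb muscle of the shin. The comparison used 29 of the 59 RNA-seq libraries of the study, chosen by muscle, melanoma and injection alone. All mice were 4-month-old female NCI Ath/nude animals carrying a human melanoma xenograft under the skin of the flank, either the cachectic (CAC) line MAST360B or the non-cachectic (NONCAC) line MAST552A, so no library came from a mouse without a tumour and each condition is a single patient-derived line. There were 10 cachectic and 9 non-cachectic diaphragms from mice given mock intraperitoneal injections of carrier, and 5 cachectic and 5 non-cachectic tibialis anterior muscles, for which the labels name no injection, so that muscle and mock injection cannot be told apart. Nude mice lack T cells but keep B cells and innate immune cells. The labels call the libraries biological replicates without tying each to an animal, and p-values measure only the spread between these libraries.

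Cancer cachexia is a wasting of muscle and fat driven by factors released by a tumour and by the host response to it. In wasting limb muscle, cytokine and glucocorticoid signals raise ubiquitin ligases and autophagy genes that break down myofibre protein, while growth signals decline. The diaphragm contracts without rest throughout life and holds mostly slow and fast oxidative fibres, whereas the mouse tibialis anterior holds mostly fast glycolytic fibres.

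The libraries matched their labelled muscles by fibre genes. Myh7, the slow myosin heavy chain, lay between 265 and 598 TPM (a length-corrected share of each library) in diaphragm and between 0.271 and 4.83 TPM in tibialis anterior, while Myh4, the fastest myosin heavy chain, lay between 13.8 and 1313 TPM in diaphragm and between 7593 and 14537 TPM in tibialis anterior. Pitx1, a hindlimb regulator, was at most 0.0212 TPM in diaphragm and at least 0.148 TPM in tibialis anterior. Mitochondrially encoded transcripts took 38.1% ± 3.18 (SD, n = 10) of the TPM in cachectic diaphragm and 47.5% ± 2.97 (n = 9) in non-cachectic diaphragm (exact permutation test, two-sided, adjusted p = 4.32e-05 over 4 tests), and 38.8% ± 8.12 (n = 5) against 48.5% ± 1.80 (n = 5) in tibialis anterior (exact permutation p = 0.00794, the smallest that 5 against 5 allows, also 0.00794 adjusted). Cachectic tibialis anterior library 8 was the lowest of all, at 25.1%. TPM keeps no depth, so sequencing depth is unknown. The libraries also fell into 2 states of a block of genes marked by Pcna-ps2, which lay at or above 5.60 TPM in high libraries and at or below 0.0387 TPM in low ones. The high state was seen in 9 of 10 cachectic and 3 of 9 non-cachectic diaphragms, in 5 of 5 cachectic and in 0 of 5 non-cachectic tibialis anterior muscles, so that in tibialis anterior state and melanoma cannot be told apart. Where diaphragm libraries are said to be matched in state, only high cachectic and low non-cachectic ones were kept, as in tibialis anterior. State and melanoma then cannot be told apart in diaphragm either. Where state was a term, its effect was estimated from diaphragm alone and applied to tibialis anterior, which was not tested.

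The melanoma effect of a gene in a muscle is the mean of log2(TPM + 1) in cachectic libraries minus that in non-cachectic libraries, and the difference of effects is the effect in diaphragm minus the effect in tibialis anterior. A gene is called when the limma moderated test across all 13316 genes tested gave an adjusted p under 0.05. Folds on this scale understate the change of low genes. Of these genes, 439 (3.3%) were called for the difference of effects: 66 (0.496%) had a higher effect in diaphragm and 373 (2.8%) a lower one. In diaphragm 5312 genes (39.9%) rose and 488 (3.66%) fell in cachectic mice, and in tibialis anterior 7660 genes (57.5%) rose and 477 (3.58%) fell. These splits depended on the scale, because the median effect of all genes was 0.20 in diaphragm and 0.38 in tibialis anterior, and the median difference of effects was -0.19. After median-ratio scaling, which sets the typical gene level between libraries, the 3 medians were -0.00196, 0.02 and -0.02, and 571 genes were called for the difference, 304 higher and 267 lower in diaphragm, with 1687 rising and 1939 falling in diaphragm and 2323 rising and 2398 falling in tibialis anterior. Of the 439 genes, 264 (60.1%) were also called in the same direction after that scaling, and the genes named below as leading were taken from these.

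Among the 373 genes with a lower effect in diaphragm, 228 rose in tibialis anterior alone, 128 rose in both muscles and more in tibialis anterior, 11 fell in diaphragm alone and 6 fell in diaphragm and rose in tibialis anterior. Of the 228, 18 reached 1 TPM in fewer than 5 diaphragm libraries, and 13 of these in none, so that their difference is not read as a differing response. Among the 66 with a higher effect in diaphragm, 46 fell in tibialis anterior alone, 6 fell in both muscles and more in tibialis anterior, 7 rose in diaphragm alone and 7 rose in diaphragm and fell in tibialis anterior, and 9 of the 46 reached 1 TPM in fewer than 5 diaphragm libraries. Of the 11 that fell in diaphragm alone, 6 reached 1 TPM in fewer than 5 tibialis anterior libraries, 4 of these in none. Of the 7 that rose in diaphragm alone, 3 did so, 2 of these in none. Differences of these low genes are not read as differing responses either. Genes that fell in diaphragm alone, named after their values were seen, included Tecrl, an endoplasmic reticulum reductase linked to heart rhythm, with an effect of -1.28 in diaphragm and -0.09 in tibialis anterior (difference -1.19, limma adjusted p = 0.00822), and Ces2c, a carboxylesterase (-1.20 and 0.31, difference -1.51, adjusted p = 0.0139). The means of Tecrl and Ces2c over the 29 libraries were low, 6.36 and 1.37 TPM. Hsph1, a heat shock protein, fell in diaphragm (-0.55) and rose in tibialis anterior (0.69). The 7 genes that rose in diaphragm and fell in tibialis anterior were Dkk3, Pcx, Pla2g12a, Mybpc1, Wipf3, Got2 and Pon2. After median-ratio scaling only Pcx among these 7 was still called in diaphragm (effect 0.59, limma adjusted p = 0.0216), with a fall in tibialis anterior (effect -1.11, adjusted p = 0.00155).

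**Figure D1:**
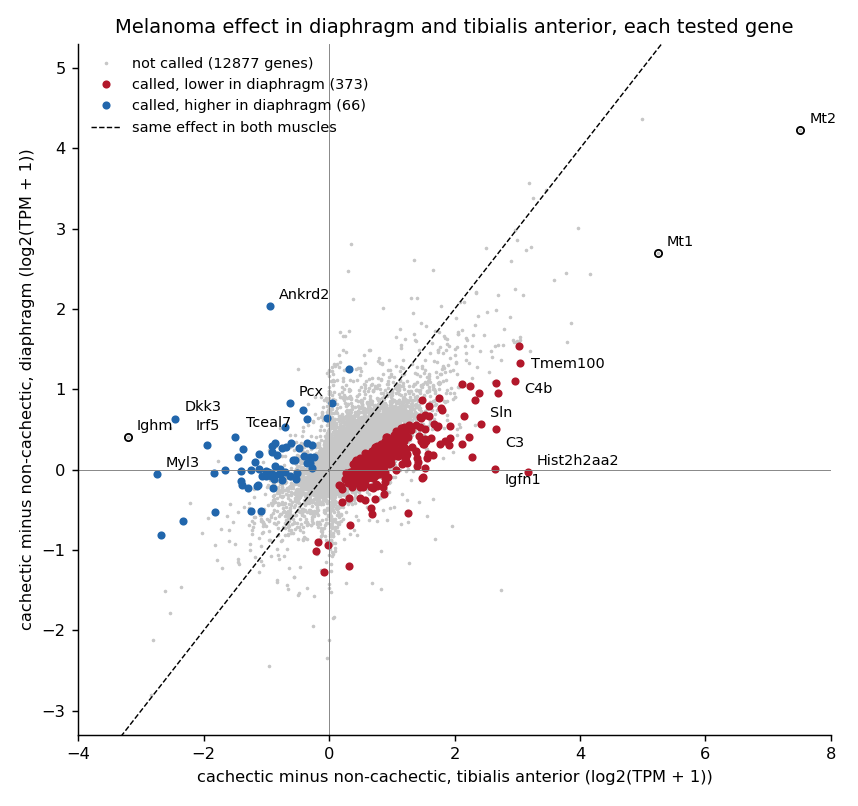
Each point is 1 of the 13316 genes tested, with its melanoma effect on log2(TPM + 1) in tibialis anterior on the x axis and in diaphragm on the y axis. The 373 red points have a lower and the 66 blue points a higher effect in diaphragm, grey points were not called, the dashed line marks equal effects, and open circles mark Mt1, Mt2 and Ighm, which were not called.

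Libraries of both muscles carry the same column number for 10 numbers, 5 in each melanoma, and libraries with the same number deviated together from their group means (r across genes between 0.134 and 0.502). With this number as a replicate block, 1677 genes were called, 242 with a higher (1.82%) and 1435 with a lower (10.8%) effect in diaphragm, and all 439 genes were among them. The muscles could also be subtracted within a number. Over all genes, 11.8% had diaphragm-minus-tibialis values of the 2 melanomas that did not overlap, and of the 24 leading genes 18 did not overlap, 9 in each direction. Between cachectic and non-cachectic libraries of a single muscle, 4.39% of all genes did not overlap in diaphragm and 47.3% in tibialis anterior, against 1 and 18 of the 24 leading genes, whose choice rests on these contrasts.

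Slow-fibre and load-related genes of the higher group included Myl3, Fhl1 and Myom3, which fell in tibialis anterior and were not called in diaphragm, and Ankrd2, which rose in diaphragm and was not called in tibialis anterior. Myl3 (chr9:110741861-110769798, GRCm38), the essential light chain of slow and ventricular myosin, was at 33.7, 38.4, 29.5, 54.4 and 32.2 TPM in non-cachectic and at 10.6, 5.21, 0.554, 4.07 and 9.02 TPM in cachectic tibialis anterior. In diaphragm its lowest, median and highest values were 255, 305 and 409 TPM without and 226, 314 and 462 TPM with cachexia. Every cachectic tibialis anterior library lay below every non-cachectic one, and the diaphragm groups overlapped. The effect was -2.74 in tibialis anterior (limma adjusted p = 6.34e-07) and -0.06 in diaphragm (adjusted p = 0.847), a difference of 2.69 ± 0.40 (SE, adjusted p = 0.000224).

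Ankrd2 (chr19:42036000-42045110), a titin-associated ankyrin repeat protein induced by stretch, had the largest rise in diaphragm among the 12 leading genes of the higher group. It was at 33.5, 127 and 285 TPM (lowest, median, highest) in non-cachectic and 168, 405 and 2015 TPM in cachectic diaphragm. Tibialis anterior gave 108, 191, 129.7, 90.0 and 389.8 TPM without and 48.0, 125, 299, 22.8 and 80.3 TPM with cachexia. Both muscles' groups overlapped. The effect was 2.03 in diaphragm (limma adjusted p = 0.00186) and -0.95 in tibialis anterior (adjusted p = 0.203), a difference of 2.98 ± 0.80 (adjusted p = 0.0373). The call was lost without any of diaphragm libraries 68 and 70 or tibialis anterior libraries 9, 61, 62, 63 and 65 (difference between 2.54 and 3.12, adjusted p up to 0.0773) and with the Pcna-ps2 state as a term (adjusted p = 0.0741). It was also lost without the filter on low values and in diaphragm libraries matched in state. The 20 libraries with a shared number, without the block, lost it too (adjusted p over all alternatives up to 0.0861).

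Fhl1 (chrX:56731787-56793346), a LIM domain protein of the sarcomere in which mutations cause myopathy, was the most abundant of the 12 leading genes of the higher group. Its tibialis anterior values were 1108, 1291, 1389, 1229 and 1586 TPM in non-cachectic and 393, 738, 528, 362 and 586 TPM in cachectic mice, and its diaphragm values ran over 705, 826 and 1035 TPM against 745, 935 and 1911 TPM. The tibialis anterior groups were apart and the diaphragm groups overlapped. The difference was 1.64 ± 0.25 (limma adjusted p = 0.000266), from an effect of -1.38 in tibialis anterior and 0.26 in diaphragm (adjusted p = 0.141). Myom3, a protein of the M-band at the centre of the sarcomere, had a difference of 1.27 ± 0.32 (adjusted p = 0.0276), with a fall of tibialis anterior from 7.36 to 24.3 TPM down to 3.02 to 8.06 TPM, ranges that overlap, beside 137 to 222 and 134 to 338 TPM in diaphragm. Without tibialis anterior library 9, 62 or 65 Myom3 was not called (difference between 1.03 and 1.15, adjusted p up to 0.0711).

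Among secreted and metabolic genes of the higher group, Dkk3 and Pcx were called in opposite directions in the 2 muscles. Dkk3 (chr7:112116017-112159057), a secreted glycoprotein of the Dickkopf family, was at 15.3, 14.0, 29.8, 22.6 and 5.61 TPM in non-cachectic and at 1.64, 1.09, 1.41, 2.82 and 3.68 TPM in cachectic tibialis anterior. In diaphragm it was at 2.49, 3.54 and 8.31 TPM (lowest, median, highest) without and 2.82, 6.62 and 15.6 TPM with cachexia. Only the tibialis anterior groups were apart. Dkk3 fell in tibialis anterior (effect -2.45, limma adjusted p = 7.67e-06) and rose in diaphragm (0.64, adjusted p = 0.0474, but 0.222 after median-ratio scaling), a difference of 3.09 ± 0.44 (adjusted p = 0.000141).

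Pcx (chr19:4510472-4621752), pyruvate carboxylase, which makes oxaloacetate from pyruvate, was at 67.0, 64.7, 89.7, 52.1 and 66.4 TPM in non-cachectic and at 33.0, 40.3, 42.9, 44.2 and 57.9 TPM in cachectic tibialis anterior. Its diaphragm values were 29.3, 58.5 and 68.3 TPM (lowest, median, highest) without and 36.6, 96.5 and 179 TPM with cachexia. The groups overlapped in both muscles. Pcx rose in diaphragm (effect 0.83, limma adjusted p = 0.00248) and fell in tibialis anterior (-0.63, adjusted p = 0.0480), a difference of 1.46 ± 0.34 (adjusted p = 0.0153). Pla2g12a, a secreted phospholipase A2, moved alike, with a rise of 0.54 in diaphragm (adjusted p = 0.00744), an effect of -0.71 in tibialis anterior (adjusted p = 0.00522) and a difference of 1.25 ± 0.26 (adjusted p = 0.00625).

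Irf5, Tceal7 and Inha fell in tibialis anterior and were not called in diaphragm. Irf5 (chr6:29526625-29541871), a transcription factor of innate immune signalling, was at 18.8, 17.4, 18.9, 18.4 and 25.0 TPM in non-cachectic and at 7.14, 4.00, 1.72, 5.71 and 4.61 TPM in cachectic tibialis anterior, beside 2.32, 5.08 and 7.18 TPM and 2.69, 5.05 and 16.9 TPM (lowest, median, highest) in diaphragm. The groups were apart in tibialis anterior and overlapped in diaphragm, and the difference was 2.27 ± 0.41 (limma adjusted p = 0.00194). Tceal7, a small nuclear protein of the elongation factor A-like family, was at 20.5 to 37.2 TPM in non-cachectic and 5.99 to 15.5 TPM in cachectic tibialis anterior, beside 11.1 to 30.2 and 13.5 to 92.6 TPM in diaphragm (difference 1.90 ± 0.45, adjusted p = 0.0171). Inha, the alpha subunit of the hormone inhibin, was at 6.08 to 21.4 TPM in non-cachectic and 5.46 to 6.68 TPM in cachectic tibialis anterior, ranges that overlap, beside 3.11 to 4.48 and 4.23 to 6.01 TPM in diaphragm (difference 1.21 ± 0.22, adjusted p = 0.00218). Cyp4f39, a fatty acid hydroxylase, and the long intergenic RNA B230312C02Rik fell in both muscles and more in tibialis anterior, with differences of 1.29 ± 0.37 (adjusted p = 0.0478) and 1.86 ± 0.49 (adjusted p = 0.0343). These calls were kept in 11 and 21 of 29 fits with a library left out. In diaphragm Cyp4f39 also differed by Pcna-ps2 state (-0.76, adjusted p = 0.0401), and with state as a term its difference was 0.96 (adjusted p = 0.129). B230312C02Rik was likewise not called with state as a term (1.62, adjusted p = 0.0879), in libraries matched in state (adjusted p = 0.0985) or with a pseudocount of 0.1 (adjusted p = 0.0682).

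**Figure D2:**
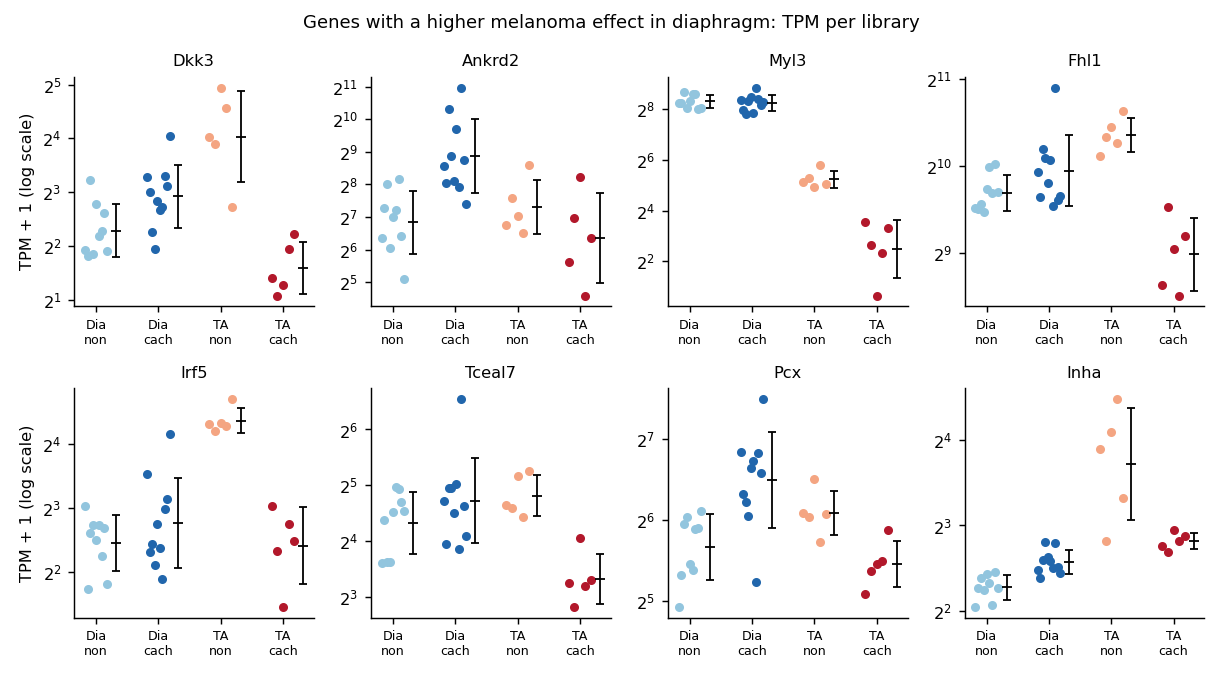
TPM per library (log axis) of 8 genes with a higher melanoma effect in diaphragm, in the 4 groups, with a bar at the mean ± SD taken on log2(TPM + 1). Myl3, Fhl1, Irf5, Tceal7 and Dkk3 separate the 2 melanomas in tibialis anterior and not in diaphragm, whereas Ankrd2 and Pcx overlap in both muscles.

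The complement genes C3 and C4b were in the lower group, and both rose in tibialis anterior. C3 (chr17:57203970-57228136), the central complement component, was at 7.64, 6.98, 5.63, 15.2 and 10.5 TPM in non-cachectic and at 68.3, 31.8, 70.0, 54.2 and 96.4 TPM in cachectic tibialis anterior. In diaphragm it was at 315, 465 and 801 TPM (lowest, median, highest) without and 349.6, 693 and 1122 TPM with cachexia. The tibialis anterior groups were apart and the diaphragm groups overlapped. C3 rose in tibialis anterior (effect 2.66, limma adjusted p = 7.71e-07) and had an effect of 0.51 in diaphragm (adjusted p = 0.0700), a difference of -2.15 ± 0.39 (adjusted p = 0.00208).

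C4b (chr17:34728380-34743882), a complement component of the classical and lectin pathways, was at 0.964, 1.57, 1.24, 2.89 and 1.37 TPM in non-cachectic and at 13.8, 8.68, 37.8, 17.9 and 28.0 TPM in cachectic tibialis anterior. In diaphragm it was at 29.7, 43.9 and 154 TPM (lowest, median, highest) and 65.8, 111 and 209.7 TPM. It rose in both muscles, by 2.97 in tibialis anterior and 1.11 in diaphragm, with groups that overlapped in diaphragm alone. The difference was -1.86 ± 0.48 (limma adjusted p = 0.0312) and was not called without tibialis anterior library 8, 10, 61, 62, 63 or 65 (difference between -1.86 and -1.61, adjusted p up to 0.0755). Quantile normalization and leaving out the filter on low values also ended the call (adjusted p up to 0.0788). Of the 26 chemokine and complement genes tested, 0 had a higher and 3 a lower effect in diaphragm (C3, C4b and the eosinophil chemokine Ccl11), beside 2.8% of all genes lower, and 7 were lower with the block, beside 10.8%. In diaphragm 15 rose and 1 fell, and in tibialis anterior 17 rose, beside 39.9% and 57.5% of all genes that rose, with median effects of 0.79 and 1.67. Ccl11 fell in diaphragm (-0.35, adjusted p = 0.0271) and rose in tibialis anterior (0.50, adjusted p = 0.0152), but after median-ratio scaling its difference was -0.62 (adjusted p = 0.0937), and it was lost without tibialis anterior library 8 or 63 (differences -0.79 and -0.74).

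Stat3 (chr11:100885098-100939540), the transcription factor that carries interleukin-6 signals to the nucleus, rose in both muscles. Tibialis anterior gave 9.49, 10.2, 9.61, 11.3 and 11.3 TPM without and 40.2, 40.2, 77.3, 49.6 and 42.4 TPM with cachexia, and diaphragm 19.0, 21.5 and 25.5 TPM against 33.3, 46.6 and 71.3 TPM (lowest, median, highest). Every cachectic library lay above every non-cachectic one in both muscles. The effect was 1.07 in diaphragm and 2.12 in tibialis anterior, a difference of -1.05 ± 0.21 (limma adjusted p = 0.00455). The cachectic levels of the muscles overlapped, while every non-cachectic diaphragm lay above every non-cachectic tibialis anterior. Of 25 acute-phase and interleukin-6 genes tested, 17 rose in diaphragm and 18 in tibialis anterior, beside 39.9% and 57.5% of all genes, with median effects of 1.05 and 2.00. For the difference 0 were higher and 2 lower (C3 and Stat3, beside 2.8% of all genes), and 7 were lower with the block (10.8% of all genes), adding Socs3, Il6ra, Il6st, Pim1 and Ifitm3. The median difference was -0.57 for this list and -1.17 for 14 liver markers, among them the fibrinogen chains Fga and Fgb, and their part in these results was not tested. The acute-phase gene Serpina3n, a protease inhibitor, had an effect of 4.37 in diaphragm and 5.00 in tibialis anterior, and the difference of -0.62 was not called (adjusted p = 0.757).

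Muscle genes also appeared in the lower group. Sln (chr9:53850164-53854560), sarcolipin, which inhibits the calcium pump of the sarcoplasmic reticulum, was at 1.5, 2.34, 1.99, 1.51 and 2.36 TPM in non-cachectic and at 10.2, 16.2, 21.9, 12.4 and 15.1 TPM in cachectic tibialis anterior. In diaphragm its level was far higher, at 871, 1099 and 1785 TPM (lowest, median, highest) against 1403, 1845 and 2112 TPM. The groups were apart in tibialis anterior and overlapped in diaphragm. Sln rose in both muscles (0.57 and 2.43), with a difference of -1.86 ± 0.23 (limma adjusted p = 1.72e-05).

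Igfn1 (chr1:135953578-136006342), an immunoglobulin-like and fibronectin domain protein of the Z-disc, was at 14.6, 18, 19.4, 55.4 and 13.6 TPM in non-cachectic and 57.6, 141, 492, 87.1 and 133 TPM in cachectic mice, with at most 0.121 TPM in any diaphragm. The tibialis anterior groups were apart, and the difference of -2.64 ± 0.42 (limma adjusted p = 0.000565) rests on tibialis anterior, where the effect was 2.65, beside 0.01 in diaphragm. Rasd2, a Ras-like GTPase, was at 4.53, 4.23, 5.44, 5.22 and 4.17 TPM in non-cachectic and at 16.9, 10.5, 53.1, 28.7 and 26.9 TPM in cachectic tibialis anterior, beside 2.61, 3.15 and 4.08 TPM and 2.33, 4.36 and 6.45 TPM in diaphragm. Its groups were apart in tibialis anterior and overlapped in diaphragm (difference -1.80 ± 0.31, adjusted p = 0.00124).

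The other leading genes of the lower group rose in tibialis anterior in every case. Tmem176b, a membrane protein of antigen-presenting cells, was the only leading gene whose groups were apart in diaphragm too, at 21.7 to 43.5 TPM without and 59.9 to 131 TPM with cachexia, beside 4.39 to 5.89 and 30.6 to 125 TPM in tibialis anterior (difference -1.49 ± 0.31, limma adjusted p = 0.00678). Aebp1, a secreted matrix protein that assists collagen assembly, rose by 0.86 in diaphragm and 2.32 in tibialis anterior (difference -1.46 ± 0.30, adjusted p = 0.00576). Rarres2, the chemoattractant adipokine chemerin, rose in tibialis anterior (effect 1.91) and had an effect of 0.30 in diaphragm (adjusted p = 0.246), a difference of -1.60 ± 0.37 (adjusted p = 0.0144). Tmem100, a membrane protein of vascular endothelium that acts downstream of BMP signals, rose by 1.33 and 3.05 (difference -1.72 ± 0.41, adjusted p = 0.0204), and was not called without tibialis anterior library 8 or 61 (differences -1.41 and -1.58). Nor was Tmem100 called with quantile normalization or in the 20 libraries with a shared number and no block term (adjusted p up to 0.0822). Map1a, a microtubule-associated protein, rose by 0.67 and 2.15 (difference -1.48 ± 0.32, adjusted p = 0.00893).

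Hyi, hydroxypyruvate isomerase, is typed by GENCODE as a polymorphic pseudogene. It rose by 1.08 in diaphragm and 2.67 in tibialis anterior, a difference of -1.59 ± 0.43 (limma adjusted p = 0.0383). Without any of diaphragm libraries 66, 68 and 70 or tibialis anterior libraries 8, 9, 61, 62, 63 and 65 it was not called (difference between -1.62 and -1.47, adjusted p up to 0.0827). Hyi, Map1a and Rarres2 also differed by Pcna-ps2 state in diaphragm, by 1.38, 0.98 and -0.80 (adjusted p = 0.000644, 1.93e-05 and 0.0379), and with state as a term their differences were -0.99, -1.05 and -1.95 (adjusted p = 0.0471, 0.00728 and 0.00106). Hyi was not called in diaphragm libraries matched in state to tibialis anterior (-1.01, adjusted p = 0.0611) or in the 20 libraries with no block term. It was also not called without the filter on low values (adjusted p = 0.0638) or with quantile normalization (0.109). The histone gene Hist2h2aa2 had the lowest difference among called genes, -3.20 ± 0.81 (adjusted p = 0.0276). It has a near-identical copy, so its reads are uncertain, and it was listed at 0 in 1 non-cachectic tibialis anterior library. It was not called without tibialis anterior library 62, 63 or 65 (adjusted p up to 0.0748), nor in the 20 libraries with the number as a fixed term (difference -1.56, adjusted p = 0.153) or without that term, with quantile normalization, with Pcna-ps2 state as a term (-2.57, adjusted p = 0.0780) or in diaphragm libraries matched in state.

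**Figure D3:**
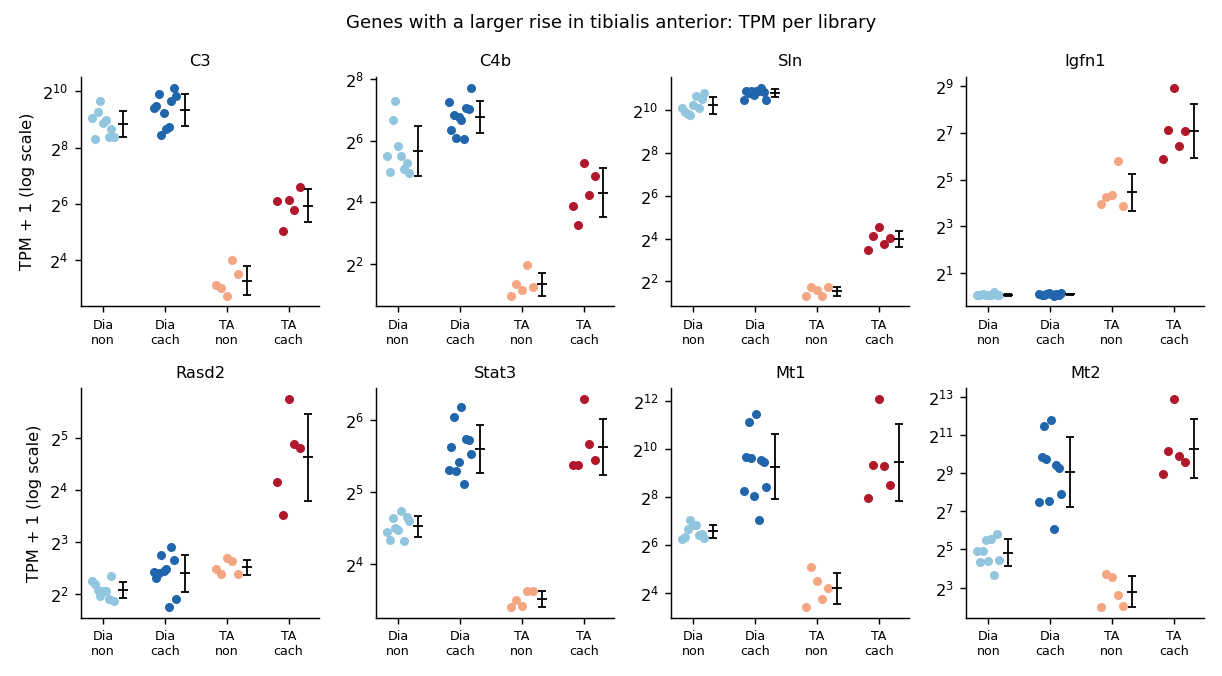
TPM per library (log axis) of 8 genes with a lower melanoma effect in diaphragm, in the 4 groups, with a bar at the mean ± SD taken on log2(TPM + 1). C3, C4b and Sln start far higher in non-cachectic diaphragm than in non-cachectic tibialis anterior, and Igfn1 stays at or below 0.121 TPM in diaphragm. Mt1 and Mt2 were not called in the fit of all 29 libraries without the block.

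The metallothioneins Mt1 and Mt2, small proteins that bind zinc and copper, had among the largest effects in both muscles. Mt2 was at 2.94, 12.1, 10.5, 5.06 and 3.15 TPM in non-cachectic and at 487, 1130.3, 7579, 962 and 758 TPM in cachectic tibialis anterior, and at 11.8, 28.7 and 55.0 TPM (lowest, median, highest) against 65.6, 658 and 3572 TPM in diaphragm. Mt1 was at 9.72, 33.2, 22.2, 12.7 and 17.9 TPM and at 249.8, 651, 4400.4, 642 and 370.0 TPM in tibialis anterior, and at 76.7, 88.5 and 133 TPM against 134, 727 and 2851 TPM in diaphragm. Both genes were apart between melanomas in both muscles. The effect of Mt2 was 4.22 in diaphragm and 7.51 in tibialis anterior, and that of Mt1 was 2.69 and 5.24. The differences of -3.29 ± 0.99 for Mt2 and -2.55 ± 0.80 for Mt1 were not called (limma adjusted p = 0.0607 and 0.0698), and were called with the block (-3.23, adjusted p = 0.0108, and -2.54, adjusted p = 0.0108). They were also called with mitochondrial transcripts left out, with array weights and with soleus in the fit, and without diaphragm library 8 or 20 or tibialis anterior library 6 (Mt2 between -3.63 and -3.56, Mt1 between -2.92 and -2.75). Adjusted p over the 14 alternatives ran from 0.00476 to 0.157 for Mt2 and from 0.00362 to 0.156 for Mt1. Of 11 metallothionein and zinc handling genes, 7 rose in diaphragm and 11 in tibialis anterior, where 39.9% and 57.5% of all genes rose, and 0 were called for the difference (4 unadjusted), or 1 lower after median-ratio scaling and 4 lower with the block, beside 10.8% of all genes.

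Mt1 and Mt2 are neighbours on chromosome 8, and their promoters are shown because the genes moved together in both muscles. Capitals mark matches to the core of the metal response element, TGCACNC or TGCGCNC on either strand, in the bases upstream of the start (RefSeq, GRCm38.p6, plus strand, Mt2 chr8:94172368-94172617 and Mt1 chr8:94178839-94179081).
Mt2: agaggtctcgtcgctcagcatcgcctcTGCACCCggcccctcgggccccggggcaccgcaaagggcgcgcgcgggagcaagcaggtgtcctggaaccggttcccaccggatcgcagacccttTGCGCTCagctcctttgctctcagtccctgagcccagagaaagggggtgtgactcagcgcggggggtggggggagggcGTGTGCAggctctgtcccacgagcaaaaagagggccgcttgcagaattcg
Mt1: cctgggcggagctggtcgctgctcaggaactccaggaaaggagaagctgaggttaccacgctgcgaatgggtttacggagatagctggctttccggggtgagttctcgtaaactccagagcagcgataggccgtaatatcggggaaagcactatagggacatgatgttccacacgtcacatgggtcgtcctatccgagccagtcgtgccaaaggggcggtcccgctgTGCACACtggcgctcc
The window of Mt2 held 3 matches and that of Mt1 held 1. Of 32851 promoters, 21.4% held at least 1 match in their 250 upstream bases and 1.26% held at least 3. A match describes these letters only.

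Among atrophy genes, 1 autophagy gene and no ubiquitin ligase or proteasome gene was called for the difference in the limma fit without the block. Fbxo32 (chr15:58175879-58214932), the ubiquitin ligase atrogin-1, was at 55.6, 89.9, 50.7, 68.8 and 37.6 TPM in non-cachectic and at 199.8, 498, 789, 138 and 201 TPM in cachectic tibialis anterior, beside 91.3, 106 and 137 TPM and 59.5, 127 and 877 TPM (lowest, median, highest) in diaphragm. The groups were apart in tibialis anterior and overlapped in diaphragm. Fbxo32 rose in tibialis anterior (2.32, limma adjusted p = 0.000247), and the diaphragm effect was 0.55 (adjusted p = 0.181). The difference of -1.76 ± 0.58 was not called (adjusted p = 0.0814) but was with the block (-1.76, adjusted p = 0.0202) and without diaphragm library 20 (-2.04). Trim63, the ubiquitin ligase MuRF1, rose in both muscles (0.96 and 2.00), and the difference was -1.04 ± 0.62 (adjusted p = 0.308, and 0.161 with the block). With the number as a fixed term in 20 libraries Trim63 was called (-1.03, adjusted p = 0.0410), and its diaphragm-minus-tibialis values did not overlap between the melanomas. Of 22 ubiquitin ligase and proteasome genes, 10 rose in diaphragm and 16 in tibialis anterior, where 39.9% and 57.5% of all genes rose, and 0 were called for the difference (9 at an unadjusted p under 0.05, beside 22.9% of all genes), or 7 lower with the block, beside 10.8%. Of 17 autophagy genes, 13 rose in diaphragm and 16 in tibialis anterior, and 1 was lower for the difference, beside 2.8% of all genes, or 6 with the block, beside 10.8%. That gene was Tfeb, the regulator of lysosome genes (-0.46 ± 0.10, adjusted p = 0.0117, but -0.23 and 0.292 after median-ratio scaling).

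Among hormone, stress and clock genes no difference of effects was called by limma without the block. For the counts that follow, 39.9% of all genes rose in diaphragm and 57.5% in tibialis anterior. Of 20 glucocorticoid response genes, 15 rose in diaphragm and 14 in tibialis anterior, with medians of 1.05 and 1.18, and 0 were called for the difference (1 at an unadjusted p under 0.05, and 1 with the block, Mt2). Of 15 integrated stress response genes, 5 rose and 1 fell in diaphragm and 8 rose and 1 fell in tibialis anterior, with 0 called for the difference (1 unadjusted). The 16 core clock genes had 0 called (0 unadjusted). Of 8 genes singled out in the published study of these mice, in part from these libraries and so no independent evidence, 6 rose in diaphragm and 7 in tibialis anterior, 1 fell in each, and 0 were called for the difference (2 unadjusted), or 2 lower with the block, beside 10.8% of all genes. Counts with no call do not show that the effects were equal.

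Slow-fibre sarcomere genes were called in both directions. Of 15 tested, 3 had a higher effect in diaphragm (Myl3, Ankrd2 and Actn2) and 4 a lower one (Sln, Tnnt1, Tnnc1 and Tpm3), beside 0.496% and 2.8% of all genes, and after median-ratio scaling 4 were higher and 1 lower. Tnnc1, slow and cardiac troponin C, rose in tibialis anterior from 1.16, 2.87, 1.53, 1.16 and 5.05 TPM to 10.5, 13.3, 4.35, 7.67 and 5.94 TPM, while diaphragm lay at 319.8, 395 and 470.3 TPM against 388, 501 and 598 TPM. Its groups overlapped in both muscles, with a difference of -1.20 ± 0.28 (limma adjusted p = 0.0164). Tnnc1 was not called with quantile normalization, or in 20 libraries with or without the number as a fixed term (adjusted p up to 0.106). Tnnt1, slow troponin T, and Tpm3, slow tropomyosin, had differences of -1.16 and -0.73. After median-ratio scaling these 3 were not called (adjusted p = 0.0565, 0.0757 and 0.136), and Tnnt1 was also lost without tibialis anterior library 61, 63 or 64 (between -1.09 and -1.01). Actn2, the Z-disc alpha-actinin of all fibres, fell in tibialis anterior from 688, 921, 859, 669.9 and 1090.4 TPM to 355, 550.1, 601, 329 and 442 TPM, while diaphragm lay at 841, 979 and 1172 TPM against 938, 1112 and 1592 TPM (difference 1.13 ± 0.19, adjusted p = 0.00124).

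Of 16 fast-fibre genes, 2 had a higher and 0 a lower effect in diaphragm, or 4 higher with the block, beside 0.496% of all genes higher, or 1.82% with the block. The first 2 were Mylpf and Myl1, the regulatory and essential light chains of fast myosin. Mylpf fell in tibialis anterior from 9543 to 12928 TPM down to 4391 to 9307 TPM (difference 0.97 ± 0.23, limma adjusted p = 0.0168). It was not called with the number as a fixed term in 20 libraries (0.96, adjusted p = 0.0524), with quantile normalization (0.64, adjusted p = 0.0983) or without the filter on low values (adjusted p = 0.0502). The call of Myl1 (0.80 ± 0.23, adjusted p = 0.0493) was kept in 6 of 29 fits with a library left out and was lost after median-ratio scaling (adjusted p = 0.0586). Of 20 load-sensing and remodelling genes, 3 were higher (Ankrd2, Fhl1 and Myl3) and 1 lower (Igfn1, which passed the filter through tibialis anterior alone, so that its call is not read as a differing response). The median difference was 0.23 for slow-fibre, 0.21 for fast-fibre and 0.32 for load genes, beside -0.19 for all genes. Of 19 neuromuscular junction and denervation genes 0 were called (3 unadjusted), with 8 rising in diaphragm and 10 in tibialis anterior, near the shares of all genes that rose (39.9% and 57.5%).

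Mitochondrially encoded transcripts fell in both muscles. Of 13 mitochondrially encoded transcripts 12 fell in diaphragm and 11 in tibialis anterior, where 3.66% and 3.58% of all genes fell, with medians of -0.31 and -0.36 and 0 called for the difference (1 unadjusted). Of 28 nuclear oxidative phosphorylation genes, 3 rose and 2 fell in diaphragm, 2 rose and 12 fell in tibialis anterior, and 1 was higher for the difference (0.496% of all genes) and 7 with the block (1.82%). Atp5o, a stalk subunit of ATP synthase, was at 402, 412, 416, 374 and 399 TPM in non-cachectic and at 320.0, 303, 308, 329.5 and 308 TPM in cachectic tibialis anterior, beside 455, 481 and 517 TPM and 445, 524 and 554 TPM in diaphragm. The groups were apart in tibialis anterior only (difference 0.44 ± 0.08, limma adjusted p = 0.00162). Of 23 fatty acid oxidation genes, 1 was higher: Fabp3, the fatty acid binding protein of heart and oxidative muscle, fell in tibialis anterior from 682, 1153, 898, 696 and 1074 TPM to 419, 480.2, 269.9, 348 and 308 TPM, beside 3979, 5113 and 5881 TPM and 2508, 4324 and 5704 TPM in diaphragm (difference 1.07 ± 0.22, adjusted p = 0.00710).

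**Figure D4:**
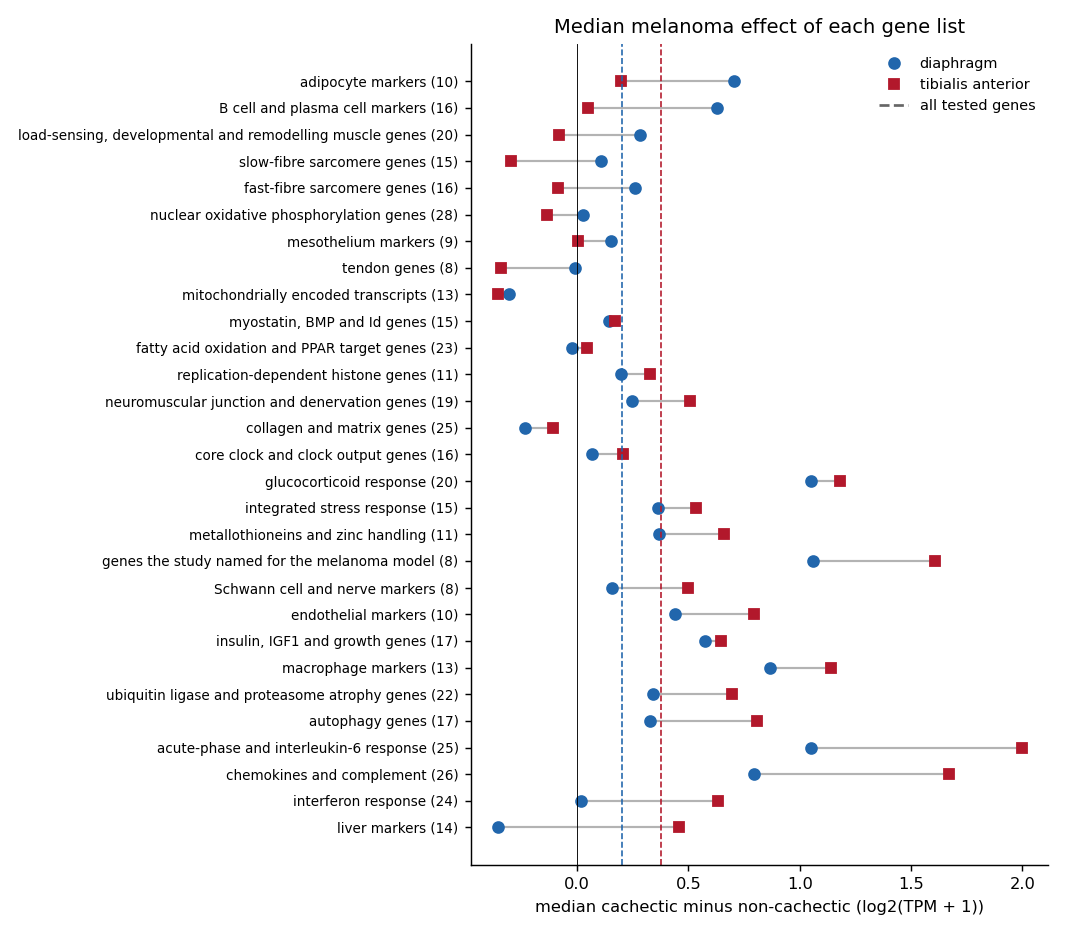
Median melanoma effect on log2(TPM + 1) (x axis) of each gene list with at least 8 tested members, in diaphragm (blue circles) and tibialis anterior (red squares), with dashed lines at the medians of all tested genes, 0.20 and 0.38. Acute-phase, chemokine and complement, and interferon lists lie farther right in tibialis anterior, and adipocyte and B cell lists farther right in diaphragm.

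Growth factor and interferon lists gave 2 or 3 calls each. Nog, the BMP antagonist noggin, rose in both muscles, from 3.95, 5.18, 2.88, 3.69 and 2.84 TPM to 18.5, 17.9, 26.6, 22.6 and 20.3 TPM in tibialis anterior and from 6.10, 7.56 and 8.62 TPM to 8.89, 17.6 and 25.6 TPM in diaphragm. Its groups were apart in both muscles, and the difference was -1.21 ± 0.24 (limma adjusted p = 0.00420, but 0.109 with quantile normalization). Of 15 myostatin, BMP and Id genes, 0 were higher and 3 lower, the others being the ligand Bmp4 (-0.62, adjusted p = 0.0436) and the receptor Acvr2a (-0.74, adjusted p = 0.0410), both lost after median-ratio scaling (adjusted p = 0.0726 and 0.0738). Of 17 insulin, IGF1 and growth genes, 2 were higher, Dkk3 and its relative Dkk2 (0.95, adjusted p = 0.0478, kept in 6 of 29 fits with a library left out), or 2 higher and 4 lower with the block. Of 24 interferon response genes, 2 rose and 2 fell in diaphragm, 9 rose and 1 fell in tibialis anterior, below the 39.9% and 57.5% of all genes that rose, 1 was higher (Irf5) and 1 lower (Irf9, -0.90, adjusted p = 0.0423, but 0.0581 after median-ratio scaling), or 1 higher and 8 lower with the block. Of all genes 0.496% were higher and 2.8% lower, or 1.82% and 10.8% with the block. At an unadjusted p under 0.05 there were 13 interferon genes, where 22.9% of all genes passed, and the median difference of the list was -0.76, beside -0.19 for all genes. Of 25 collagen and matrix genes 0 were called (5 unadjusted, and 3 lower with the block, near the 10.8% of all genes), and of 8 tendon genes 0 (2 unadjusted). Of 11 histone genes 1 was lower, Hist2h2aa2.

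Among markers of other cell types, only Cidea and Tek, described below, were called for the difference without the block. In bulk tissue fewer cells of a type and less RNA per cell cannot be told apart. Adipocyte markers summed to 941 to 2697 TPM in non-cachectic and 1493 to 6061 TPM in cachectic diaphragm, and to 417 to 535 and 493 to 908 TPM in tibialis anterior. Of 10 tested, 9 rose in diaphragm and 1 in tibialis anterior, where 39.9% and 57.5% of all genes rose, and Cidea, a lipid droplet protein, had a higher effect in diaphragm (0.99, limma adjusted p = 0.0380, kept in 19 of 29 fits with a library left out). Cidea was not called with the number as a fixed term in 20 libraries (adjusted p = 0.0545), with state as a term (0.0762) or in libraries matched in state (0.107). Macrophage markers summed to 284 to 879 against 460.1 to 1852 TPM in diaphragm and 49.2 to 79.9 against 76.5 to 417 TPM in tibialis anterior, 11 of 13 rose in each muscle, and 0 were called for the difference (1 unadjusted). Of 6 neutrophil markers 6 rose in diaphragm and 4 in tibialis anterior, to be read against the same shares of all genes. Their part in the complement, chemokine and Tmem176b differences was not tested.

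B cell markers summed to 45.5 to 205 TPM in non-cachectic and 8.36 to 41.2 TPM in cachectic tibialis anterior, ranges that do not overlap, and to 26.1 to 2307 and 47.3 to 3744 TPM in diaphragm. Of the 16 genes 0 rose and 1 fell in tibialis anterior, where 57.5% of all genes rose and 3.58% fell, and the median effect there was 0.05. For the difference 0 of them were called (1 unadjusted), and Ighm, the immunoglobulin mu chain, was with the block (3.30, limma adjusted p = 0.0331, against 3.62 and 0.0900 without it). Liver markers reached 12499 TPM in a non-cachectic diaphragm and at most 48.2 TPM in tibialis anterior, and 0 of 14 were called for the difference (0 unadjusted), with median effects of -0.36 in diaphragm and 0.46 in tibialis anterior. Endothelial markers had 1 of 10 called, the angiopoietin receptor Tek (-0.58, adjusted p = 0.0299, but 0.118 after median-ratio scaling), beside 3.3% of all genes called for the difference. Of these 10, 6 rose and 1 fell in diaphragm, and 9 rose and 1 fell in tibialis anterior, beside 39.9% and 57.5% of all genes that rose. Schwann cell (8 genes), red blood cell (6), mesothelium (9) and melanocyte (2) markers had 0 called, with 1, 0, 0 and 1 at an unadjusted p under 0.05. The melanocyte genes Pmel, Mlana and Tyr were at most 0.269, 0.159 and 0.0139 TPM in any library.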

How the data were processed

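RNA was sequenced from bulk muscle tissue, for diaphragm from a portion cleared of tendon. The authors used CLC Genomics Workbench and the GRCm38 assembly for alignment and deposited a TPM value for each gene and library. The annotation is not given in the sources used here, and each column sums to a fixed total, so depth and counting error are unknown. Here, genes with at least 1 TPM in at least 5 of the 29 libraries (13316 of 47643 symbols) were tested on log2(TPM + 1) with limma 3.58.1 in R 4.3.3, 1 mean per group, Benjamini-Hochberg adjustment and a threshold of 0.05. Leading genes were the 12 highest and 12 lowest differences of effects among genes called in the same direction as deposited and after median-ratio scaling with a mean of at least 5 TPM (41 higher and 138 lower were eligible). Members and lists were chosen with earlier results of these data known. Numbers in column names were used to pair the muscles, though no label ties a number to a mouse. The correlation of deviations exceeded 0.1 for each of 10 shared numbers, and 8 of 10 tibialis anterior libraries correlated best with their own. Numbers 63 and 64 correlated better with another diaphragm (0.134 against 0.16, and 0.183 against 0.2). Alternatives covered pseudocount, filter, scaling, weights, state, the block and each library left out. Positions follow GENCODE, promoters RefSeq.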

Additional observations from a re-analysis of the deposited data

Results flagged for a closer look

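Of the 439 genes called for the difference between the muscles (limma, adjusted p under 0.05), the 42 that are leading or listed genes are given here. The differences of effects (diaphragm minus tibialis anterior, log2) were 3.09 for Dkk3, 2.98 for Ankrd2, 2.69 for Myl3, 2.27 for Irf5, 1.90 for Tceal7, 1.86 for B230312C02Rik, 1.64 for Fhl1, 1.46 for Pcx, 1.29 for Cyp4f39, 1.27 for Myom3, 1.25 for Pla2g12a and 1.21 for Inha. They were -3.20 for Hist2h2aa2, -2.64 for Igfn1, -2.15 for C3, -1.86 for Sln, -1.86 for C4b, -1.80 for Rasd2, -1.72 for Tmem100, -1.60 for Rarres2, -1.59 for Hyi, -1.49 for Tmem176b, -1.48 for Map1a and -1.46 for Aebp1. Among the listed genes they were 1.13 for Actn2, 1.07 for Fabp3, 0.99 for Cidea, 0.97 for Mylpf, 0.95 for Dkk2, 0.80 for Myl1 and 0.44 for Atp5o, and -1.21 for Nog, -1.20 for Tnnc1, -1.16 for Tnnt1, -1.05 for Stat3, -0.90 for Irf9, -0.85 for Ccl11, -0.74 for Acvr2a, -0.73 for Tpm3, -0.62 for Bmp4, -0.58 for Tek and -0.46 for Tfeb.

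A single library lay far from the rest of its group in 20 of 200 groups of values (10%), where the critical value is set so that chance gives about 1 in 20. The groups share libraries, and a chance rate for TPM was not measured. Cachectic diaphragm library 22, the only cachectic diaphragm in the low Pcna-ps2 state, held 5 of these, with B230312C02Rik at 3.81, Cyp4f39 at 2.48 and Myl1 at 2581 TPM above the other cachectic diaphragms, and Hyi at 3.60 and Map1a at 4.16 TPM below them. Cyp4f39, Hyi and Map1a also differed between the states. Cachectic diaphragm library 32 was high for Tceal7 (92.6 TPM), Fhl1 (1911 TPM) and Myom3 (338 TPM), and library 20 for Trim63 (1481 TPM). Non-cachectic diaphragm library 67 was high for Igfn1 (0.121 TPM) and library 68 for Bmp4 (20.1 TPM) and Fbxo32 (137 TPM). Cachectic tibialis anterior library 8 was high for B230312C02Rik (7.71 TPM) and Tmem176b (125 TPM) and low for Myl1 (1400 TPM). Among non-cachectic tibialis anterior libraries, 65 was high for Irf5 (25.0 TPM), 64 was high for Igfn1 (55.4 TPM), 63 was low for Ccl11 (11.9 TPM), and 62 was high for the mitochondrial share (51.7%) and the share of the 10 most abundant genes (49.1%).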

How the results depend on the processing

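The number of genes called for the difference of effects, 439 (66 higher in diaphragm), moved by over 1.5 times with quantile normalization (276, 147 higher), mitochondrial transcripts left out (2029, 142 higher), array weights (1447, 293 higher), soleus libraries in the fit (681, 96 higher), diaphragm libraries matched in Pcna-ps2 state to tibialis anterior (233, 76 higher), the 20 libraries with a shared column number (270, 132 higher) and an unadjusted p with an absolute log2 over 1 (193, 53 higher). The replicate block by column number, chosen after seeing the data because the columns carry no replicate number of the labels, gave 1677 with an estimated correlation, 1078 as a fixed term in 20 libraries (350 higher), and 1897 with median-ratio scaling. Diaphragm calls (5800) moved to 3626 with median-ratio scaling, 3315 without mitochondrial transcripts, 1104 with state as a term, 3556 in the 20 libraries, 3601 with scaling and block, and 319 by unadjusted p and fold. Tibialis anterior calls (8137) moved to 4721, 3799 with quantile normalization, 2643 with state, 5252 with scaling and block, and 899 by unadjusted p and fold. The cause was not tested. Leaving out each library gave 228 to 1118 calls for the difference, 4694 to 7177 in diaphragm and 6352 to 8499 in tibialis anterior. The first count passed 1.5 times without diaphragm library 68 (279) and tibialis anterior libraries 6 (1118), 8 (290), 61 (238), 62 (266), 63 (228) and 65 (277). The 24 leading genes kept their direction under all 14 alternatives, 14 of them were called under every alternative, and 16 were called without each library in turn. They were chosen as the most extreme calls in these same libraries, kept after median-ratio scaling, which is itself an alternative. Their direction was therefore in part set by the choice and is no independent support. The mitochondrial share kept its exact permutation call without each library, with differences of -10.1 to -8.81 percentage points in diaphragm and -11.4 to -6.25 in tibialis anterior.

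A single xenograft line per condition, unequal group sizes, TPM without counts, and mock injections known for diaphragm alone limit each comparison. No value here separates the melanoma line from cachexia.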

Other observations

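The soleus, a slow postural muscle of the calf, was also sequenced with 5 cachectic and 5 non-cachectic libraries, and its melanoma effect is set beside the other muscles as a description. It lay nearer to the diaphragm effect than to the tibialis anterior effect for 45 of the 66 genes with a higher effect in diaphragm (68.2%) and for 350 of the 373 with a lower one (93.8%), beside 9951 of all 13316 genes (74.7%). Ankrd2 had an effect of 1.74 in soleus, between means of 1148 TPM without and 3888 TPM with cachexia, beside 2.03 in diaphragm and -0.95 in tibialis anterior. Dkk3 had an effect of -0.00827 in soleus, nearer to diaphragm (0.64) than to tibialis anterior (-2.45). Sln had an effect of 1.60, Hyi of 2.29 and Hist2h2aa2 of 3.60 in soleus, nearer to tibialis anterior in each case. The differences between soleus and the other muscles were not tested.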
